A study of Fagopyrum tataricum with 9 samples.

Results

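The loci described here are stretches of the Tartary buckwheat (Fagopyrum tataricum) genome in which the authors assembled transcripts outside the reference gene models. Their deposited count table held 2092 such loci beside 31839 annotated gene models, 33931 entries in all. The loci described were chosen by their counts: 1428 loci had a sum of at least 90 counts over the 9 libraries, and the other 664 fell short of it. The size of that sum is therefore not a finding. Positions, exons and strands are those of the deposited files, for which no source used here names the genome build.

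Loci of this kind appear wherever reads assemble into a transcript that no gene model covers. They can be protein-coding genes that an annotation missed, detached ends of a neighbouring gene, long non-coding RNAs, pseudogenes or transcribed transposable elements, and an assembly alone does not tell these apart. Long non-coding RNAs of plants are known for low levels, few exons and expression limited to a tissue or a stage.

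RNA came from whole seeds of MIQIAO 1, a variety whose hull is easily removed, collected at the green fruit, discoloration and initial maturity stages, with 3 libraries per stage. Sampling at 13, 19 and 25 days post anthesis is given without a link to the stage names, and was read in developmental order. Per the labels, the stages were sampled on the same individuals, 3 plants supplied the replicates of a stage, and the plants were field-grown under shared conditions. No agent or mutation separates the groups, and plants are not linked to replicate numbers in the labels. Since seeds were sequenced whole, fewer cells of a type and less RNA per cell cannot be told apart.

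The libraries held 21585045 to 26777643 counts. Levels are given as CPM, counts scaled to library size with edgeR's TMM factors, which corrects for a few genes taking much of a library. In each stage 1 library stood apart: replicate 1 of green fruit, replicate 1 of discoloration and replicate 2 of initial maturity. The other pair of libraries in a stage differed little beyond counting error, at 2.63 for green fruit, 2.02 for discoloration and 3.70 for initial maturity (chi-square over all genes divided by its degrees of freedom), whereas pairs with the library that stood apart gave 45.2 to 271. Storage protein, oleosin and late embryogenesis genes, the seed markers (28 genes, 1 of them at 0), summed to 16932 to 60191 CPM in green fruit, 248594 to 269347 CPM at discoloration and 260264 to 371436 CPM at initial maturity. The highest green fruit value was that of replicate 1. Green tissue markers (21 genes) summed to 1663 to 3890 CPM, 608 to 865 CPM and 58.5 to 70.1 CPM in the same order of stages. Laccases and secondary wall cellulose synthases, the vascular and hull wall markers (35 genes, 3 at 0), summed to 287 CPM in green fruit replicate 1 and to 1322 and 1366 CPM in the other green fruit libraries, then to 316 to 597 CPM at discoloration and 389 to 498 CPM at initial maturity. Pollen markers (8 genes, 1 at 0) stayed between 156 and 342 CPM in the 9 libraries. The part of these tissue shifts in the results below was not tested, and no cell type is assigned to a locus.

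The loci lay on all 8 chromosomes, mostly between genes and a few kilobases from the nearest one. Chromosome 1 held 225, chromosome 2 held 151, chromosome 3 held 204, chromosome 4 held 177, chromosome 5 held 165, chromosome 6 held 174, chromosome 7 held 152 and chromosome 8 held 180. Relative to annotated genes, chromosome 2 was the poorest with 3.69 loci per 100 gene models and chromosome 4 the richest with 5.42. The median distance to the nearest annotated gene on either strand was 3024 bases (quartiles 1164 and 7701), against 3796 bases for the loci under 90 counts. Annotated gene models lay closer to each other, at a median of 1827 bases.

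By distance, 300 loci (21.0%) lay within 1 kb of an annotated gene, 850 (59.5%) at 1 to 10 kb and 274 (19.2%) beyond 10 kb. The remaining 4 spanned an annotated gene lying inside an intron. Among the loci within 1 kb, 132 were on the strand of the gene and 168 on the opposite strand, as the files give it. The kit did not mark strand, so reads of overlapping transcripts on opposite strands could not be told apart. Of annotated gene models, 36.5% had another gene model within 1 kb. The nearest gene had no Swiss-Prot match for 428 loci (30.0%), against 26.3% of all gene models. A transposon-type name marked the nearest gene of 49 loci (3.43%), against 2.53% of all gene models.

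Most of the loci were spliced. A single exon was found in 51 loci (3.57%), while 453 (31.7%) had 2 exons, 345 (24.2%) had 3, 216 (15.1%) had 4, 137 (9.59%) had 5 and 226 (15.8%) had 6 or more, counted in the transcript with the most exons. Loci under 90 counts had fewer exons, with 51.5% at 2 and 5.42% at 6 or more. The median locus had 2 transcripts and a longest transcript of 1720 bases, against 1145 bases for the loci under 90 counts. Another unannotated locus overlapped 52 of the loci (3.64%), and on the opposite strand in 48 of these cases. Overlap was more frequent among the loci under 90 counts, at 176 of 664 (26.5%). Where the overlapping partner of a locus was itself under 90 counts (42 cases), it had no count at all in 24 cases. No source used here says how the authors' counting divided reads between such partners.

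**Figure D1:**
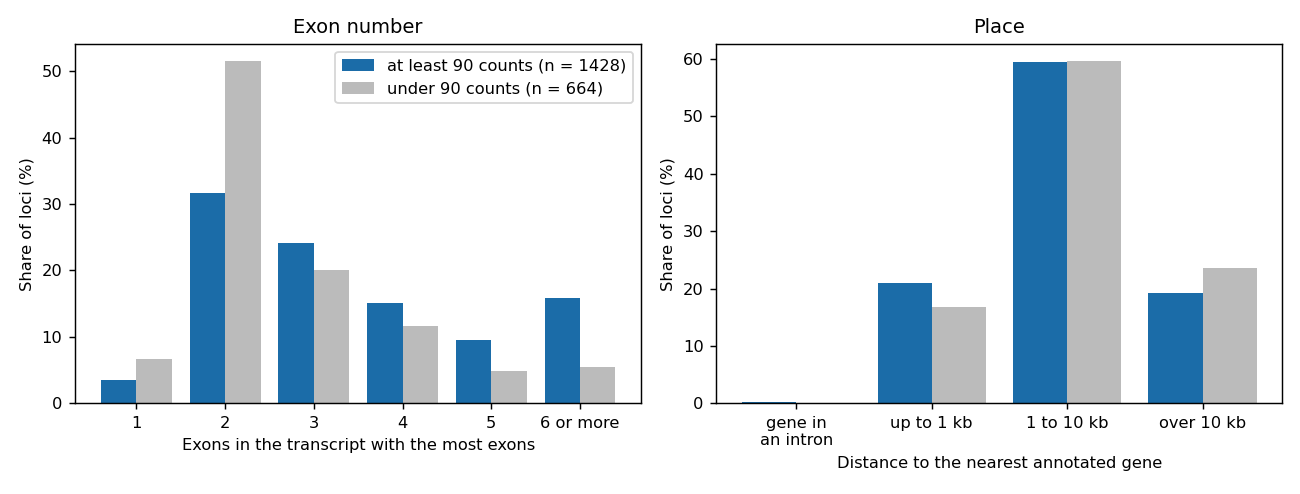
Share of unannotated loci (%) by number of exons in the transcript with the most exons (left) and by distance to the nearest annotated gene (right), for the 1428 loci with at least 90 counts (blue) and the 664 below (grey). Loci with 2 exons made up 31.7% of the first set and 51.5% of the second, and 59.5% of the first set lay 1 to 10 kb from a gene.

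The loci were low compared with annotated genes per unit of length. Their median level, as the authors' FPKM (fragments scaled to length and to the library) averaged over the 9 libraries, was 2.95, against 8.86 for the 21703 annotated genes with at least 90 counts. The median FPKM was 1.04 for loci with 1 exon, 2.18 with 2, 2.98 with 3, 2.92 with 4, 3.77 with 5 and 5.37 with 6 or more. In all, the loci took 2.41 ± 0.180% of the counts of green fruit libraries, 2.07 ± 0.184% of those of discoloration and 2.09 ± 0.267% of those of initial maturity (SD, n = 3 each). Without the 4 most abundant loci these shares were 2.24 ± 0.259%, 1.53 ± 0.152% and 1.45 ± 0.131%. All of them are shares of raw library totals without TMM factors. They therefore also depend on how much of a library a few genes take.

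The locus with the highest mean CPM was Novel01480 on chromosome 6, from 4345909 to 4349373 on the minus strand, with 2 exons. Its CPM was 311, 20.9 and 18.8 in green fruit libraries, 2311, 2234 and 2306 at discoloration and 4190, 5872 and 4811 at initial maturity. Levels of the 3 stages did not overlap, and green fruit replicate 1 stood above the other green fruit libraries. The difference was 4.29 on the log2 scale between discoloration and green fruit (SE 1.06, adjusted p = 0.0113) and 6.85 without green fruit replicate 1; the step to initial maturity, 1.12, did not pass the test (adjusted p = 0.374). The earlier call was lost when close libraries were added together. Novel01480 lay 571 bases from the start side of a gene on the other strand that matches a pentatricopeptide repeat protein, a family that processes organelle RNA. That gene averaged 1.84 ± 0.415 CPM in green fruit, 0.668 ± 0.142 CPM at discoloration and 2.17 ± 0.379 CPM at initial maturity. An unannotated locus on the plus strand, Novel01364, overlapped Novel01480 and had 1 count in all libraries, against 391427 counts for Novel01480.

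Of the 10 loci highest in mean CPM, 6 rose between green fruit and discoloration: Novel01480, Novel00719, Novel02023, Novel00583, Novel01614 and Novel01597. Among all genes tested, 19.5% were higher at discoloration. Above 30 CPM, 51.4% of the loci differed and 91.1% of these were higher. For annotated genes with at least 90 counts and above 30 CPM these shares were 43.0% and 71.3%. Both the ranking and the limit of 30 CPM use the mean over all stages. It includes the values compared and favours loci high at the later stages. Novel00719 (chromosome 3, 57463052 to 57466146, 6 exons) had 139, 108 and 106 CPM in green fruit, 1263, 1294 and 1291 CPM at discoloration and 1588, 1591 and 1586 CPM at initial maturity. Its 3 libraries of a stage lay close together, and its rise of 3.45 on the log2 scale had an SE of 0.27 (adjusted p = 4.69e-05). Novel02023 (chromosome 8, 19553077 to 19554324, 3 exons) had 49.6, 6.10 and 5.56 CPM, then 406, 695 and 617 CPM, then 738, 2248 and 725 CPM. Here green fruit replicate 1 and initial maturity replicate 2 were the high libraries of their stages; the rise was 4.81 (SE 0.96, adjusted p = 0.00423) and 6.62 without green fruit replicate 1, and the call was lost with close libraries added together. Novel00583 (chromosome 3, 7052156 to 7055054, 4 exons) showed the same outliers, with 16.9, 1.59 and 1.48 CPM, then 278, 326 and 318 CPM, then 529, 1072 and 573 CPM. Its rise was 5.53 (SE 0.98, adjusted p = 0.00234), and 7.64 without green fruit replicate 1.

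Novel01614 and Novel01597 rose in both intervals. Novel01614 (chromosome 7, 1924040 to 1926650, 6 exons) had 24.3, 20.7 and 19.9 CPM in green fruit, 320, 322 and 324 CPM at discoloration and 541, 743 and 535 CPM at initial maturity. Its nearest gene, matched to a pectinesterase, an enzyme of cell wall pectin, averaged 0.107 ± 0.110 CPM in green fruit and at most 0.0642 CPM at the later stages. Novel01597 (chromosome 6, 50427548 to 50430138, 2 exons) had 110, 122 and 125 CPM, then 218, 179 and 181 CPM, then 596, 606 and 591 CPM. Its later step was the larger, 1.63 (SE 0.19, adjusted p = 0.000524) against 0.70 (SE 0.19, adjusted p = 0.0167) for the earlier one. The earlier step of Novel01597 was -0.31 when libraries were scaled by their totals only, so its direction rests on the scaling. With close libraries added together neither step of Novel01597 was called, and of Novel01614 only the first one was.

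The other 4 of the 10 did not rise by the test. Novel01538 (chromosome 6, 25337561 to 25351531, 23 transcripts) had 315, 621 and 610 CPM in green fruit, 416, 617 and 615 CPM at discoloration and 221, 199 and 221 CPM at initial maturity. It fell by 1.36 on the log2 scale in the later interval (SE 0.31, adjusted p = 0.00877), a call lost with close libraries added together. Novel00527 averaged 293 ± 11.7, 448 ± 60.0 and 303 ± 80.8 CPM and Novel00553 304 ± 55.9, 357 ± 86.8 and 304 ± 10.4 CPM in the order of stages, with no adjacent difference past the test. Novel01187 (chromosome 5, 29043392 to 29047611, 5 exons) was the only one of the 10 on which the close pair of initial maturity libraries disagreed widely, with 2216 CPM in replicate 1 and 417 CPM in replicate 3. Its other values were 1252, 540 and 576 CPM in green fruit, 2080, 2061 and 2088 CPM at discoloration and 2773 CPM in initial maturity replicate 2. The gene 316 bases away from Novel01187, on the other strand, matches Protein TAR1, which in yeast is encoded on the strand opposite the large ribosomal RNA; it had 319, 686 and 876 CPM at initial maturity.

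**Figure D2:**
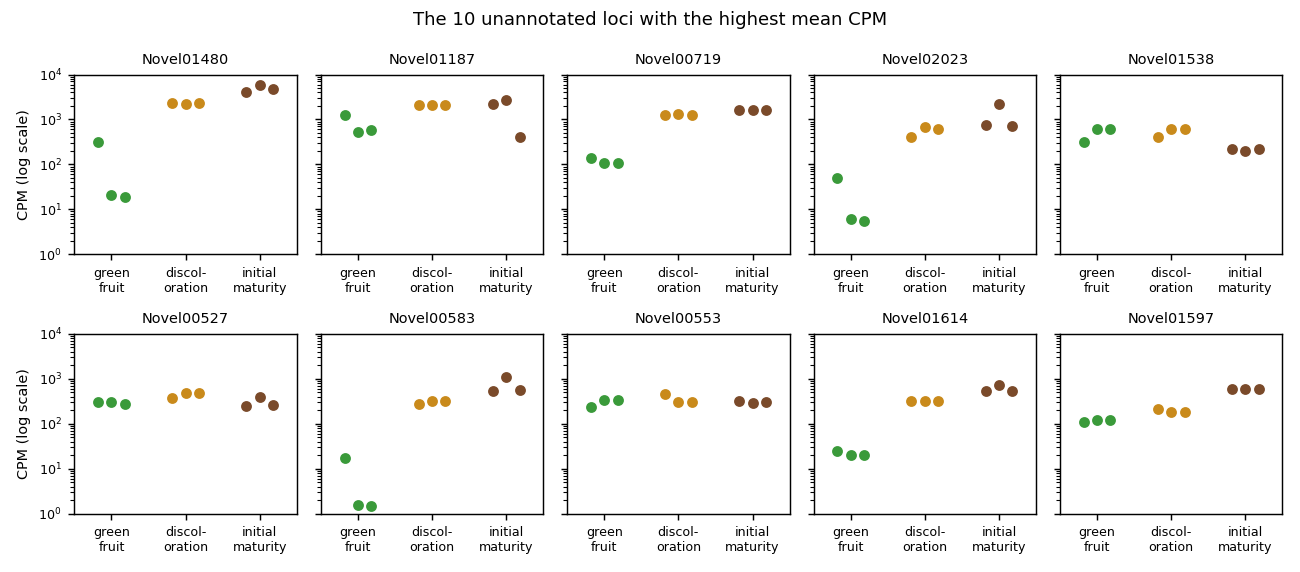
CPM (log scale) of the 10 unannotated loci with the highest mean CPM in each of the 9 libraries, by stage; each point is 1 library, in the order of replicate number. Novel00719 sits between 106 and 139 CPM in green fruit and between 1586 and 1591 CPM at initial maturity, while Novel01187 spans 417 to 2773 CPM at initial maturity.

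The stage pattern of the loci was tested in 1 fit over all genes, in which 1404 of the 1428 loci passed the filter on low counts; 24 did not. A locus counts as higher or lower where its adjusted p was under 0.05. At discoloration 317 loci were higher and 153 lower than in green fruit, 470 in all (33.5%), where 39.5% of all 23631 genes tested differed, 19.5% higher and 19.9% lower. Thus 67.4% of the differing loci were higher at discoloration, against 48.8% of the differing annotated genes with at least 90 counts. Between initial maturity and discoloration 468 loci differed, 268 higher and 200 lower, beside 36.4% of all genes (16% higher, 20.4% lower). Between initial maturity and green fruit 766 loci differed, 470 higher and 296 lower, beside 60.8% of all genes (28.3% higher, 32.5% lower). Any difference among the 3 stages was found for 810 loci (57.7%), beside 65.4% of all genes.

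Over all levels, the share of loci that differed was thus below that of all genes in each comparison, and the split leaned to the later stage. Among loci above 30 CPM the share was above that of annotated genes of the same level. It was 51.4% against 43.0% between discoloration and green fruit and 67.0% against 64.1% between initial maturity and green fruit. In every lower class (under 1, 1 to 3, 3 to 10 and 10 to 30 CPM) it was below that of annotated genes. The earlier comparison gave 27.3% against 34.5%, 34.5% against 42.1%, 32.3% against 40.4% and 32.6% against 38.2% from the lowest class up. Initial maturity against green fruit gave 50.2% against 54.3%, 56.2% against 60.3%, 53.0% against 61.5% and 54.1% against 62.0%. The loci were lower in level, with 19.4% of them under 1 CPM, against 9.03% of annotated genes. The median log2 difference of the loci was 0.15 between discoloration and green fruit, 0.12 between initial maturity and discoloration and 0.21 between initial maturity and green fruit. For annotated genes with at least 90 counts the same medians were -0.05, -0.03 and -0.07. Scaling by library totals moved the median of all genes to -1.03, -0.37 and -1.39, and the medians of the loci to -0.84, -0.22 and -1.12. Under that scaling the split turned to 163 higher and 781 lower between discoloration and green fruit, 166 and 313 between initial maturity and discoloration, and 228 and 869 between initial maturity and green fruit. The median of the loci lay above that of all genes under both scalings, while the direction of the split did not hold under both.

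Leaving out the 3 libraries that stood apart gave 931 differing loci in the first interval, 611 higher and 320 lower. For initial maturity against discoloration it gave 877, with a nearly even split of 445 higher and 432 lower. Without discoloration replicate 1 alone the later interval had 199 loci higher and 215 lower, so the lean of that interval to higher levels rests on that library. Leaving out discoloration replicate 2 or 3 left 282 and 289 differing loci there. Adding together the close libraries of each stage, which leaves 2 samples a stage, gave 169 differing loci in the first interval (145 higher, 24 lower) and 103 in the second (65 higher, 38 lower). Some loci reached 90 counts through 1 stage, namely those with under 90 counts outside it. Their full number was not counted. Among them, 88 loci (6.16%, against 3.25% of annotated genes with at least 90 counts) had under 30 counts outside their main stage. Of these 88, 67 were tested and 63 differed among the stages, which their selection favours. Without the 88 loci, 305 loci were higher and 119 lower at discoloration than in green fruit, 424 in all. Loci with at least 30 but under 90 counts outside their main stage remain in that split, and selection favours their difference too.

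Loci with a higher mean CPM over the 3 stages leaned further to discoloration over green fruit. That mean includes the values compared. Loci low in green fruit and high later thus fall in higher classes, which favours this order. Of the differing loci, the share higher at discoloration was 42.0% at a mean under 1 CPM, 60% at 1 to 3 CPM, 66.9% at 3 to 10 CPM, 82.4% at 10 to 30 CPM and 91.1% above 30 CPM. Annotated genes followed the same order at lower shares, 28.7%, 33.6%, 38.4%, 52.2% and 71.3%. On every chromosome more of the differing loci were higher than lower, with shares of 62.7% to 74.1% for discoloration against green fruit. Under library totals, an alternative for these splits chosen after seeing the data, fewer of the differing loci were higher than lower in every class and on every chromosome. The shares higher at discoloration were then 10.8%, 19.3%, 14.3%, 13.1% and 44.6% from the lowest to the highest class, which is not a steady order, and 12.8% to 20.5% by chromosome.

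**Figure D3:**
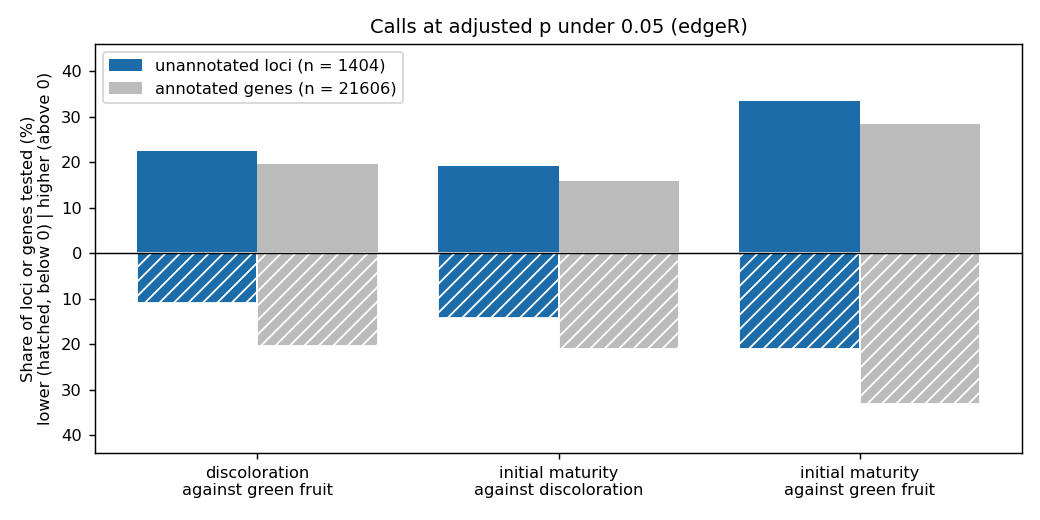
Share (%) of the 1404 unannotated loci (blue) and the 21606 annotated genes with at least 90 counts (grey) that passed the filter and differed at adjusted p under 0.05, in 3 comparisons of stages; bars above 0 are higher, hatched bars below 0 are lower. With TMM scaling, as drawn, the upper blue bar is longer than the lower one in each comparison and the reverse holds for the grey bars; scaling by library totals turns the split of the loci.

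Over both intervals, and with TMM scaling, 111 loci rose and rose again (7.91%, against 4.86% of annotated genes with at least 90 counts) and 37 fell and fell again (2.64%, against 6.51%). A rise followed by a fall was seen for 36 loci (2.56%, against 3.14% of annotated genes) and a fall followed by a rise for 19 (1.35%, against 2.55%), while 669 (47.6%, against 40.7% of all genes tested) differed in neither interval. The stage with the highest mean was initial maturity for 655 loci (45.9%), green fruit for 452 (31.7%) and discoloration for 321 (22.5%, against 20.7% of annotated genes). Among annotated genes green fruit came first, with 41.6% against 37.7% for initial maturity. More than 90% of the summed stage means lay in a single stage for 52 loci (3.64%): 27 peaked in green fruit, 1 at discoloration and 24 at the last stage. The same held for 556 annotated genes (2.56%), of which 465 were in green fruit and 89 at initial maturity.

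The 6 loci named for the highest fold changes from green fruit to discoloration were at or near 0 in green fruit. They reached 90 counts through the later stages, which favours such a difference. Their differences between discoloration and green fruit are therefore given without a test. Novel01585 (chromosome 6, 43690399 to 43696082, 10 exons) had 16.7, 10.5 and 10.2 CPM at discoloration, against 0.0275, 0 and 0 CPM in green fruit. With 1 count in green fruit its ratio was 1535, with a counting interval of 275 to 60706 (95%). Without green fruit replicate 1, which holds that count, it was at least 362-fold higher; without replicate 2 the ratio was 931. It went on to 45.7, 33.9 and 40.1 CPM at initial maturity, 1.68 higher on the log2 scale (adjusted p = 0.00158). Novel00889, Novel01341 and Novel02084 had no count in any green fruit library. Novel00889 had 5.76, 3.24 and 3.08 CPM at discoloration and 7.90, 5.88 and 6.63 CPM at initial maturity. Taking 3 counts over the stage as the limit of a count of 0, it was at least 165-fold higher at discoloration than in green fruit. Novel01341 averaged 2.36 ± 0.469 CPM at discoloration and was at least 97.5-fold higher, and Novel02084 averaged 1.49 ± 0.963 CPM and was at least 60.2-fold higher. Without green fruit replicate 2, whose depth enters the limit, all 3 bounds were lower by over 1.5 times, at 59.1-fold for Novel01341 and 36.5-fold for Novel02084, and without discoloration replicate 1 that of Novel02084 was 38.8-fold. Novel01341 lay 2184 bases from a gene matched to PROTODERMAL FACTOR 2, a regulator of epidermal cell identity in Arabidopsis.

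Novel01239 (chromosome 5, 52186126 to 52188460, 6 exons) was the most abundant of these 6 loci. It had 0.715, 0.0816 and 0 CPM in green fruit, 66.5, 79.1 and 72.0 CPM at discoloration and 192, 284 and 193 CPM at initial maturity. The difference between discoloration and green fruit was 8.14 on the log2 scale, and 10.51 without green fruit replicate 1. Its nearest gene, 1830 bases away on the same strand, matches codeine O-demethylase, an enzyme of poppy alkaloid synthesis, and averaged 2.04, 20.1 and 131 CPM in the order of stages. Novel00255 (chromosome 1, 34551122 to 34554253, 10 exons) completed the group with 5.76, 1.95 and 2.85 CPM at discoloration, against 0.0275, 0 and 0 CPM in green fruit. With 1 count in green fruit its ratio was 428 (counting interval 76.0 to 16978), 260 without green fruit replicate 2 and at least 101 without replicate 1. It stood at 25.0, 16.9 and 23.1 CPM at initial maturity.

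The 6 loci named for the largest falls into discoloration had at most 22 counts outside green fruit. They reached 90 counts through that stage alone, so their differences are given without a test. In each of them replicate 1 was far above the other green fruit libraries. Novel00578 (chromosome 3, 5111597 to 5113568, 2 exons) had 0, 0 and 0.0467 CPM at discoloration, against 26.5, 2.53 and 2.65 CPM in green fruit. Novel00081 (chromosome 1, 29103457 to 29105397, 3 exons) had 0, 0.0444 and 0 CPM at discoloration, against 24.0, 3.69 and 3.52 CPM in green fruit. Both had 1 count at discoloration and were lower there by 606-fold, with a counting interval of 109 to 23965. Without green fruit replicate 1 the ratio was 164 for Novel00578 (29.1 to 6507) and 230 for Novel00081 (40.9 to 9093), and without the discoloration library that holds the single count only a bound remains, at least 134-fold and 130-fold. Novel01958 had 0 counts at both later stages, against 9.49, 0.918 and 1.10 CPM in green fruit, at least 73.5-fold lower at discoloration and at least 21.1-fold without replicate 1. Novel00834 was likewise at 0 at both later stages, at least 38.9-fold lower at discoloration and at least 10.3-fold without green fruit replicate 1. Novel01802 was 134-fold lower (counting interval 36.8 to 1107), 37.4-fold without green fruit replicate 1 (10.1 to 313), and Novel00579 differed by -6.86 on the log2 scale. Its difference was -5.06 without green fruit replicate 1 and -7.56 without discoloration replicate 3.

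The 6 loci named for the largest rises into initial maturity were near 0 before it. They had at most 32 counts outside that stage and reached 90 counts through it, so their differences too are given without a test. Novel00451 (chromosome 2, 60032476 to 60034753, 4 exons) had 7.52, 9.10 and 4.51 CPM at initial maturity, against 0.204, 0.0444 and 0.0467 CPM at discoloration. Its difference was 6.14 on the log2 scale, and 7.13 without discoloration replicate 1. Novel01940 (chromosome 8, 38042364 to 38045428, 5 exons) had 9.24, 3.10 and 8.63 CPM, against 0.255, 0.178 and 0.0934 CPM, a difference of 5.29. In this locus initial maturity replicate 2 was the lowest of its stage, while in the other 5 it was the highest. Novel01049 had 1.34, 5.12 and 1.67 CPM at initial maturity and 2 libraries with 1 count each at discoloration, a ratio of 86.4 (counting interval 23.4 to 721) and of 47.8 without initial maturity replicate 2 (12.5 to 406). Without discoloration replicate 3 it was 57.3. Novel01887 showed nearly the same values, 1.53, 5.24 and 1.93 CPM, and a ratio of 61.6 (counting interval 20.7 to 303), 36.6 without initial maturity replicate 2 (11.9 to 183), 40.9 without discoloration replicate 3 and 119 without discoloration replicate 2. Novel01273 and Novel00735 differed by 5.64 and 5.12 on the log2 scale. The difference of Novel01273 was 4.82 without initial maturity replicate 2 and 5.04 without discoloration replicate 2, and without discoloration replicate 1 no count was left at that stage.

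Loci lost between discoloration and initial maturity were mostly already present in green fruit. Novel01280 (chromosome 5, 15800045 to 15801056, 2 exons) had 243, 158 and 149 CPM in green fruit, 2.19, 31.7 and 38.0 CPM at discoloration and 0, 0.821 and 0.258 CPM at initial maturity. It fell in both intervals, by 2.94 (SE 0.86, adjusted p = 0.0235) and by 6.04 (SE 1.14, adjusted p = 0.00403). The earlier call was lost without discoloration replicate 2, both were lost with close libraries added together, and the later difference was -7.50 without initial maturity replicate 2. Novel00846 (chromosome 3, 48243219 to 48243903, 2 exons) had no difference past the test in the first interval, with 50.6, 12.6 and 13.5 CPM and then 6.58, 25.9 and 26.0 CPM, and stood at 0.318, 0.379 and 0.322 CPM at initial maturity. Its nearest gene, 12023 bases away and matched to a metal-binding EC protein, averaged 223, 4880 and 9938 CPM in the order of stages. The locus fell by 5.82 in the later interval (SE 0.87, adjusted p = 0.00137). Discoloration replicate 1 was below the other discoloration libraries in both loci.

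Of the other 4 loci lost at initial maturity, Novel00163 had 12.5, 8.88 and 7.99 CPM at discoloration and 0.318, 0.0632 and 0.258 CPM at initial maturity, a fall by 5.49 (SE 0.50, adjusted p = 0.000217). Novel00442 fell by 4.37 (SE 0.42, adjusted p = 0.000277). Novel01478 had under 90 counts outside its main stage, so its difference is given without a test. With 1 count at initial maturity, it was 54.8-fold lower than at discoloration (counting interval 9.54 to 2194), and 36.4-fold without initial maturity replicate 2. Without initial maturity replicate 1 the ratio was 36.5, and without replicate 3, which holds the count, a bound of 12.2 remains. Novel01577 had no count at initial maturity, at least 21-fold lower than at discoloration. With 85 of its counts at discoloration and 28 in green fruit, it too passed 90 counts through the stage where it is high and is given without a test; the bound was 13.9 without initial maturity replicate 2. Markers of green tissue summed to 58.5 to 70.1 CPM at initial maturity, against 608 to 865 CPM at discoloration; their part in these falls was not tested.

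**Figure D4:**
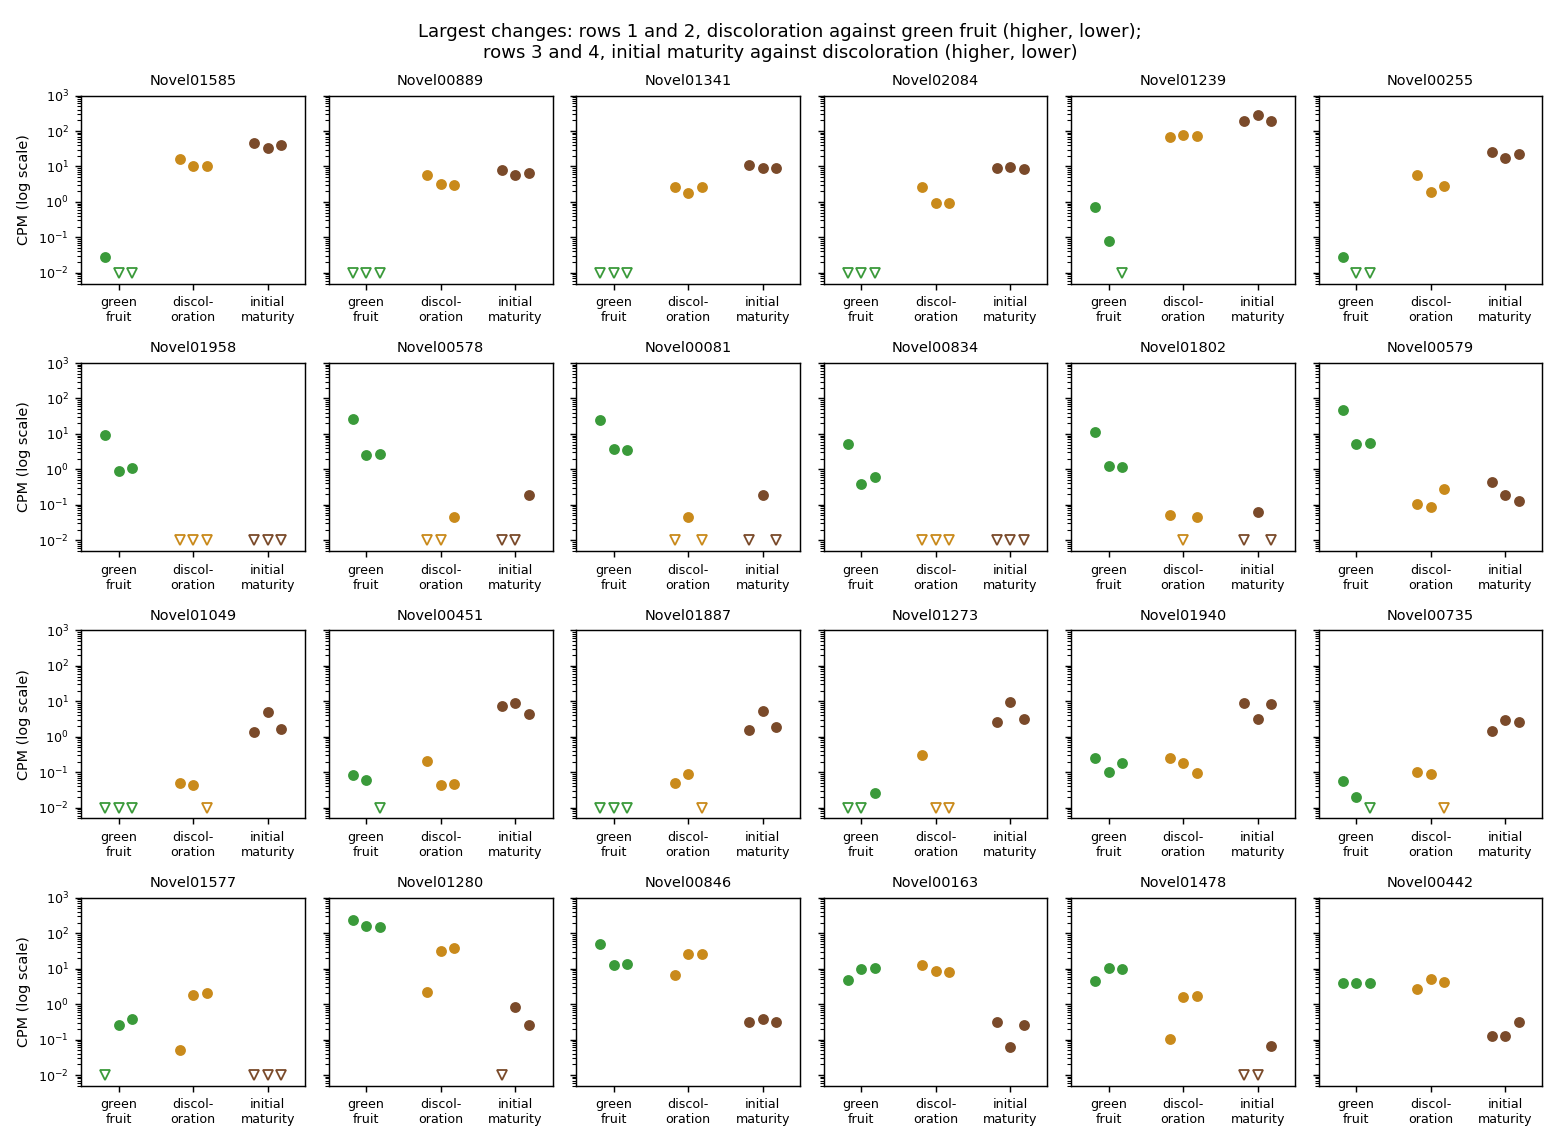
CPM (log scale) in each of the 9 libraries for the 24 loci with the largest changes: 6 higher and 6 lower between discoloration and green fruit (rows 1 and 2) and 6 higher and 6 lower between initial maturity and discoloration (rows 3 and 4). Each filled point is 1 library, in the order of replicate number, and open triangles mark libraries with 0 counts, drawn at the bottom of the axis. In row 2 the first green fruit library lies above the other green fruit libraries in all 6 loci.

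Of the 36 loci that rose and then fell, a share near that of annotated genes, the 6 with the lowest adjusted p were Novel00296, Novel00346, Novel00996, Novel01149, Novel01727 and Novel01854. Novel00296 (chromosome 1, 48592948 to 48596268, 9 exons) had 2.67, 1.73 and 1.89 CPM in green fruit, 9.13, 9.42 and 9.81 CPM at discoloration and 2.93, 2.53 and 2.64 CPM at initial maturity. The discoloration libraries lay close together and clear of both other stages, and the differences were 2.17 (SE 0.21, adjusted p = 0.000137) and -1.81 (SE 0.22, adjusted p = 0.000578). Novel01149 (chromosome 5, 12988590 to 12992125, 6 exons) was the most abundant of the 6, with 17.1, 21.0 and 19.8 CPM at discoloration, between 4.64 and 7.62 CPM in green fruit and between 3.93 and 4.97 CPM at initial maturity. Novel00996 (chromosome 4, 1617569 to 1619997, 3 exons), which had 193 of its 225 counts at discoloration, had the steepest peak, at 3.67, 2.49 and 3.04 CPM, with at most 0.265 CPM in green fruit and 0.318 CPM at initial maturity. It passed the count limit through discoloration, so its selection favours such a peak.

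The 3 loci with the most exons differed in pattern. Novel01656 (chromosome 7, 20842587 to 20849834), with 24 exons the locus with the most, had 74.0, 95.6 and 94.8 CPM in green fruit, 298, 245 and 232 CPM at discoloration and 335, 289 and 326 CPM at initial maturity. It rose by 1.55 (SE 0.20, adjusted p = 0.000532) in the first interval, and its later step of 0.30 did not pass. Novel00601 (chromosome 3, 14868699 to 14876367, 20 exons) had 250, 128 and 127 CPM, then 80.2, 105 and 112 CPM, then 19.1, 13.3 and 17.5 CPM, and fell by 2.57 (SE 0.31, adjusted p = 0.000602) in the later interval. Novel01566 (18 exons, 26 transcripts) averaged 29.9 ± 2.14, 32.4 ± 3.10 and 32.9 ± 1.68 CPM, and no comparison of it passed the test.

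The longest transcripts came from Novel00916 with 14390 bases, Novel00907 with 12581 and Novel01808 with 9907. Novel00907 (chromosome 4, 12079723 to 12096428) carried 34 transcripts, the most of any locus, and had 76.9, 78.2 and 77.9 CPM at discoloration, against 21.1, 26.1 and 26.3 CPM in green fruit, a rise of 1.67 (SE 0.16, adjusted p = 0.000133). Novel00916 and Novel01808 passed no comparison. Novel00916 averaged 19.6 ± 0.775 CPM in green fruit, 17.9 ± 0.575 CPM at discoloration and 17.2 ± 3.86 CPM at initial maturity.

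The loci farthest from an annotated gene were Novel01662 at 170926 bases, Novel01300 at 90572 and Novel01562 at 88155. Novel01662 (chromosome 7, 24090723 to 24093739, 2 exons) had 8.11, 12.2 and 14.1 CPM in green fruit, 6.17, 7.95 and 8.64 CPM at discoloration and 4.59, 3.54 and 4.25 CPM at initial maturity. It was lower at initial maturity than in green fruit by 1.47 on the log2 scale (SE 0.24, adjusted p = 0.000697). Novel01300 rose at initial maturity, with 1.78, 0.948 and 1.61 CPM, against 0.306, 0.489 and 0.374 CPM at discoloration (1.87, SE 0.41, adjusted p = 0.00732). Novel01562 averaged 15.7 ± 4.62, 14.4 ± 1.23 and 19.1 ± 2.68 CPM and passed no comparison.

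The loci were next set beside their nearest annotated genes, with the caution that both may share reads where transcripts run into each other. In the comparison of initial maturity with green fruit, 30 loci within 1 kb and on the strand of their gene differed together with it, and 24 of these pairs (80%) went the same way. On the opposite strand 27 of 49 such pairs (55.1%) went the same way. Farther away the counts were 103 of 178 pairs (57.9%) at 1 to 10 kb and 32 of 63 (50.8%) beyond 10 kb. Between discoloration and green fruit they were 8 of 9 on the same strand, 13 of 20 (65%) on the opposite strand, 52 of 83 (62.7%) at 1 to 10 kb and 14 of 22 (63.6%) beyond 10 kb, with no decline beyond 1 kb. Between initial maturity and discoloration they were 8 of 9, 9 of 20 (45%), 39 of 71 (54.9%) and 11 of 23 (47.8%) in the same order. Annotated genes within 1 kb of each other were counted likewise. For initial maturity against green fruit, 472 of 670 same-strand pairs (70.4%) and 674 of 1269 opposite-strand pairs (53.1%) went the same way. For discoloration against green fruit these were 254 of 330 (77.0%) and 272 of 512 (53.1%). For initial maturity against discoloration they were 182 of 267 (68.2%) and 250 of 439 (56.9%). Same-strand neighbours in general thus leaned the same way. Across all pairs within 1 kb with both members tested, the correlation of log2 differences between initial maturity and green fruit was 0.46 over 91 same-strand pairs and 0.19 over 118 opposite-strand pairs, against 0.36 and 0.06 for annotated pairs. Between discoloration and green fruit it was 0.26 and 0.15, against 0.38 and 0.04. For initial maturity against discoloration it was 0.48 and 0.14, against 0.27 and 0.06. These values are a description, since the pairs share libraries.

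Examples of such pairs were chosen after their values were seen. Strands are as deposited. The kit did not mark strand, and a locus with 1 exon, such as Novel02038, has no splice site to show it. Novel02038 (chromosome 8, 24673377 to 24675298, 1 exon) lay 95 bases upstream of FtPinG0002651000.01, a gene with no Swiss-Prot match, and had 3.08, 8.16 and 7.60 CPM in green fruit, 0.969, 1.29 and 1.59 CPM at discoloration and 0.318, 0.190 and 0.129 CPM at initial maturity. The gene had 4.32, 9.57 and 10.6 CPM, then 0.969, 1.91 and 1.26 CPM, then 0.318, 0.126 and 0.386 CPM, and both differed by -4.86 between initial maturity and green fruit. Novel00207 (3 exons) lay 189 bases downstream of a gene matched to WRKY transcription factor 44, a regulator of seed coat and hair development in Arabidopsis. It averaged 32.0 ± 4.26, 39.1 ± 2.64 and 11.5 ± 3.21 CPM in the order of stages, beside 33.2 ± 4.46, 38.4 ± 0.171 and 11.5 ± 3.54 CPM for the gene. In both pairs locus and gene were close in CPM, which is not scaled to length, and went the same way. By the authors' FPKM, Novel00207 averaged 79.2, 48.3 and 11.2 in the order of stages, and its gene 51.5, 29.7 and 7.08. Whether locus and gene form 1 transcript was not tested in either pair.

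Another same-strand pair rose, at unequal CPM. Novel01087, 278 bases downstream of FtPinG0007433900.01, had 30.7, 41.1 and 31.4 CPM at initial maturity, against 1.54, 1.31 and 1.10 CPM in green fruit, whereas the gene averaged 4.78 ± 0.570 CPM, against 0.246 ± 0.0471 CPM. Other pairs went apart. Novel00284, 309 bases downstream of a gene matched to histone H3.2, a protein of the nucleosome, was higher at initial maturity than in green fruit by 0.33 (SE 0.13, adjusted p = 0.0493), whereas the gene fell by 4.11 (SE 0.85, adjusted p = 0.00244) to a mean of 0.298 ± 0.136 CPM, against 11.4, 1.94 and 2.37 CPM in green fruit. Novel00626, 605 bases upstream of its neighbour FtPinG0000905800.01, was lower by 0.87 (SE 0.32, adjusted p = 0.0391), while that gene rose by 7.52 (SE 1.16, adjusted p = 0.000476).

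**Figure D5:**
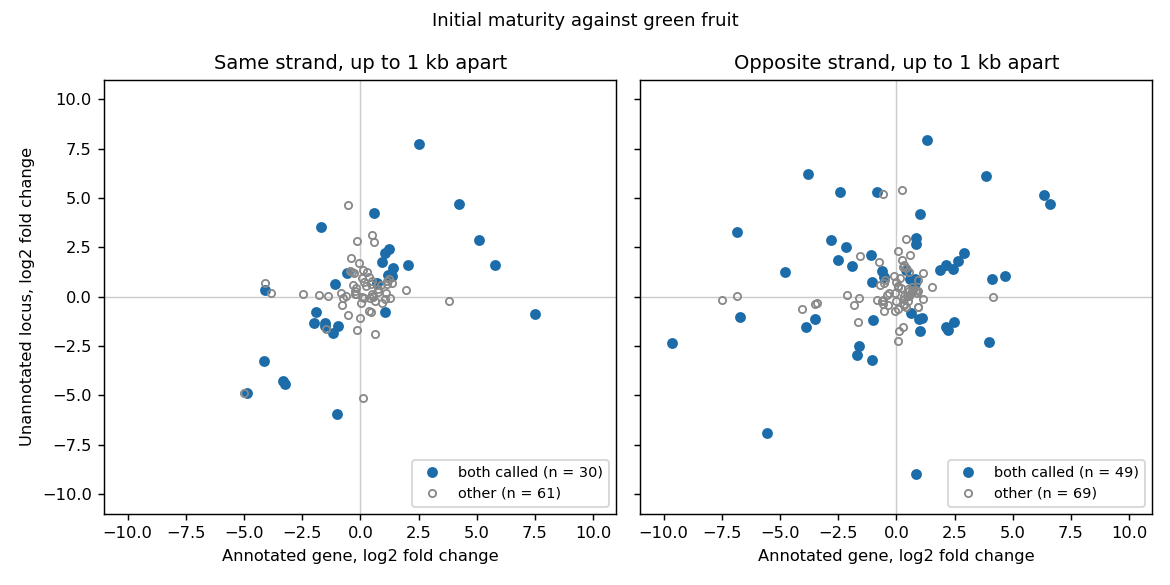
Log2 fold change between initial maturity and green fruit of unannotated loci (vertical axis) and of their nearest annotated gene (horizontal axis), for pairs within 1 kb on the same strand (left, n = 91) and on opposite strands (right, n = 118). Filled points are pairs in which both differed at adjusted p under 0.05, and 24 of 30 of these on the left lie where both signs are equal, against 27 of 49 on the right.

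Loci of extreme position were also looked up after the values were seen. The closest loci were Novel00911, 1 base from a gene matched to a beta-1,3-galactosyltransferase, and Novel00908, 8 bases from a gene with no match. Novel00911 (13 exons) averaged 37.6 ± 0.953 CPM in green fruit, 30.5 ± 2.87 CPM at discoloration and 26.2 ± 3.81 CPM at initial maturity. The 4 loci with a gene inside an intron were Novel00590, Novel01040, Novel01512 and Novel01798. Novel01512 (chromosome 6, 15694599 to 15704580) averaged 2.52 ± 1.13, 8.31 ± 1.38 and 12.5 ± 3.21 CPM and its enclosed gene at most 0.0948 CPM in any stage. Novel01798 (chromosome 7, 33048693 to 33062379) had means of 2.55 ± 1.07, 0.273 ± 0.239 and 0.0211 ± 0.0365 CPM and, with 327 of its 346 counts in green fruit, is given without a test. Its enclosed gene was low throughout, with a green fruit mean of 0.153 ± 0.0876 CPM.

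Some loci rested on 1 library. More than 50% of the summed CPM lay in a single library for 49 loci (3.43%), of which 31 were in green fruit replicate 1 and 16 in initial maturity replicate 2, against 385 annotated genes (1.77%). More than 80% lay in green fruit replicate 1 for 10 loci, led by Novel02086, likewise chosen after its values were seen, with 95.3%. Novel02086 had 3.19, 0.0816 and 0.0766 CPM in green fruit and none at the later stages. Loci also differed between libraries that were otherwise close: past 4-fold after adding 0.1 CPM, 5 loci (0.350%) differed between green fruit replicates 2 and 3, 3 (0.210%) between discoloration replicates 2 and 3, and 8 (0.560%) between initial maturity replicates 1 and 3. The shares of annotated genes were 0.0829%, 0.0783% and 0.373%. Neither these shares nor those resting on 1 library were matched for level. Under 1 CPM lay 19.4% of the loci, against 9.03% of annotated genes. Examples, named after their values were seen, were Novel00001 and Novel00653. Novel00001 had 3.16, 2.88 and 0.0510 CPM in green fruit and 3.57, 0.0444 and 0 CPM at discoloration. Novel00653 had 0.275, 3.33 and 0.306 CPM in green fruit.

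At the limit of 90 counts, the loci just inside were Novel00047 and Novel00453 with 90 counts each, and those just outside were Novel00340 and Novel01723 with 88. Novel00047 averaged 0.122 ± 0.0902, 0.499 ± 0.129 and 0.896 ± 0.577 CPM in the order of stages and Novel00453 0.278 ± 0.145, 0.389 ± 0.249 and 0.701 ± 0.397 CPM. Novel01723 averaged 0.00917 ± 0.0159, 0.204 ± 0.0675 and 1.57 ± 1.22 CPM and Novel00340 0.424 ± 0.279, 0.228 ± 0.174 and 0.486 ± 0.509 CPM. These loci were chosen as the nearest to the limit, so their likeness in counts follows from that choice. How the sums of all loci spread around the limit was not examined.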

How the data were processed

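The authors deposited raw read counts and FPKM values for each gene and unannotated locus in 9 libraries, per the file headers, and exon positions of the loci in a deposited annotation file. The submitters' processing notes name Bowtie2 2.0.6 and TopHat2 2.0.12; no source used here gives the assembler, the counting program, the handling of reads with several matches or the genome build. The deposited FPKM values of the loci use the mean length of a locus's transcripts, which matched within 1% for all 1983 loci with values. Libraries came from a TruSeq RNA kit, per the labels' protocols.

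Distances, exon numbers and overlaps were computed from the deposited positions and carry no test. The test on counts was edgeR's quasi-likelihood test (version 4.0.16, glmQLFit and glmQLFTest; limma 3.58.1; R 4.3.3), with TMM factors, filterByExpr at a minimum count of 10 and all 9 libraries in 1 fit without covariates. The fit kept 23631 entries and removed 10300, and p-values were adjusted by Benjamini and Hochberg over those kept; calls are at an adjusted p under 0.05. The common dispersion gave a biological coefficient of variation of 0.289. An SE is the size of the log2 fold change over the root of its F statistic. CPM values are means ± SD of n = 3 libraries. For a stage with 1 to 3 counts a ratio with an exact 95% counting interval is given, and for one with 0 counts a bound at 3 counts over the stage; both cover counting error only. Per the labels the replicates of a stage are separate plants, and p-values measure the spread between these libraries. The close pair of each stage differed little beyond counting error, so that spread comes mostly from the library that stood apart. The stages were sampled on the same individuals, so the 9 libraries may not be independent, which the fit did not take into account.

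The loci, marker lists and tests were chosen with earlier results of these data known. Loci were named by a fixed rule: the 10 highest in mean CPM, the 6 highest and 6 lowest changes of each adjacent comparison with at least 1 CPM in the higher stage, the 6 clearest peaks at discoloration, the 3 with the most exons, the 3 longest, the 3 farthest from a gene and 2 on each side of the count limit; others are said to be chosen after their values were seen. Tested alternatives were DESeq2 1.42.0, its size factors, library totals, no filter, a replicate block, leaving out libraries, adding close libraries and other limits. Same-numbered libraries of different stages did not deviate together (r between -0.138 and 0.129), so replicate numbers were not used as pairs. With 3 libraries a stage and 1 of them apart, these values cannot tell whether same-numbered libraries share a plant. The deposited genotype tables were not used here.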

Additional observations from a re-analysis of the deposited data

How the results depend on the processing

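Of 56 named changes, 889 alternative values were computed: 848 kept direction and call, 40 kept direction only, 22 of these with the close libraries of a stage added together, and 1 reversed, the change of Novel01597 between discoloration and green fruit with library totals (-0.31). Counts of differing loci moved by over 1.5 times in these cases. Between initial maturity and discoloration 282 differed without discoloration replicate 2 and 289 without replicate 3. With library totals 944 differed between discoloration and green fruit. Without the libraries that stood apart 931 differed between discoloration and green fruit and 877 between initial maturity and discoloration. With close libraries added together the counts were 169, 103 and 442 for discoloration against green fruit, initial maturity against discoloration and any stage. The causes were not tested. Leaving out 1 library at a time gave 339 to 611, 282 to 650, 662 to 866 (initial maturity against green fruit) and 718 to 938 (any stage). DESeq2 gave 506, 536, 777 and 854, and the replicate block 449, 416, 748 and 779, in the same order. The labels do not say whether replicate numbers pair the libraries, and the block changed none of the 56 named calls. The median distance was 7426.5 bases to the nearest gene on the same strand, and 11.4% and 38.7% of loci lay within 0.5 and 2 kb, against 21.3% within 1 kb or around a gene. Limits of 45 or 180 counts moved no count by over 1.5 times. Depth limits loci near 90 counts, about 10 counts per library. Ratios and bounds without single libraries, and the splits by level and chromosome under library totals, were chosen after seeing the data.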
